A study of Mus musculus with 6 samples.

Results

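The 10 genes described here encode receptors of T cells and the ligands that meet them on other cells: the receptors Icos, Cd28, Ctla4, Pdcd1, Lag3 and Tigit, and the ligands Cd274, Pdcd1lg2, Cd80 and Cd86. They were taken by symbol from the 54532 genes of the table, and each matched 1 row. MI was induced in 3 WT and 3 Crlf2-/- mice by tying off the left anterior descending coronary artery, and RNA of the infarct and its border was sequenced 7 days later, with 1 library for each mouse. The cytokine TSLP signals through the product of Crlf2, and the Crlf2-/- group carries the label TSLPR KO. All mice are labelled C57BL/6 and all had the ligation, so no sham heart enters the comparison. WT mice were purchased as C57BL/6J males of 8 to 12 weeks. Crlf2-/- mice were generated on the C57BL/6J background by another supplier, no separate age is stated for them, and supplier and genotype cannot be told apart. The question was how the receptors and their ligands differed between the infarcted hearts of the 2 genotypes.

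A T cell that recognises antigen needs a second signal, which CD28 gives when it binds CD80 or CD86 on an antigen-presenting cell. ICOS, bound by ICOS ligand, gives a related signal once the cell is activated. CTLA-4 competes with CD28 for the same ligands and restrains the cell, as do PD-1, LAG-3 and TIGIT through ligands of their own, and these inhibitory receptors are known as checkpoints. In the infarcted heart, T cells arrive during the first days of repair, where macrophages and dendritic cells carry most of the ligands.

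Cd28, Ctla4 and Icos lie next to each other on chromosome 1, in that order on the plus strand of mm10 (GRCm38). Cd28 ends 113.6 kb before Ctla4 starts and Ctla4 ends 62.09 kb before Icos starts, with 0 other protein-coding genes in either gap of the GENCODE M21 annotation. The coding stretches below are shown because they encode the loop with which these receptors touch their ligands. Each is 60 bases of exon 2, read from the GENCODE M21 transcripts, with the 18 bases in capitals that span 3 proline codons in a row, the 2 codons before them and 1 after. Such a run of proline codons was found once in each coding sequence.
Cd28, chr1:60763254-60763313, plus strand: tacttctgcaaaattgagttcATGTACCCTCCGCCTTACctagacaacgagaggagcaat
Ctla4, chr1:60912692-60912751, plus strand: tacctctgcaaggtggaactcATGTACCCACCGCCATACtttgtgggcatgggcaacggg
Icos, chr1:60993962-60994021, plus strand: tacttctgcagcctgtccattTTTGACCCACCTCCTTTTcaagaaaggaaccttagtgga
Of the 18 capital bases, 16 were alike in Cd28 and Ctla4, the receptors of CD80 and CD86. The loop of Icos, which binds another ligand, shared 11 of the 18 bases with Cd28 and 11 with Ctla4. Over the whole 60 bases, 38 were alike between Cd28 and Ctla4, 31 between Cd28 and Icos and 29 between Ctla4 and Icos.

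Gene expression is given as FPKM, the fragments of a gene scaled to gene length and library size, as deposited. The WT libraries held 18508646 to 18973594 fragments on the genes of the table, and the Crlf2-/- libraries 18578175 to 19682428. The fragments behind each FPKM were worked out from the gene length. Fold changes are those of Crlf2-/- over WT on the log2(FPKM + 0.1) scale after scaling between libraries, which understates the change of low genes, and they were tested with limma over all 15520 genes that passed a filter on low fragments. The targeted gene, Crlf2, had 917, 813 and 707 fragments in the WT and 437, 651 and 667 in the Crlf2-/- libraries (log2 fold change -0.52, adjusted p = 0.521), so its transcripts were present in all 3 Crlf2-/- libraries. The fold change of the median tested gene was -0.0042 on the log2 scale.

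Of the 10 genes, 8 passed the filter and 2, Ctla4 and Pdcd1lg2, did not. None of the 8 was called different, that is, 0 passed both an adjusted p of 0.05 and a log2 fold change of 0.5 in either direction, where 0.0129% of all tested genes did (limma, and 0 of the 8 by limma's voom on the fragments). At an unadjusted p under 0.05 there was 1 of the 8 by either tool, Icos, where 6.58% of all tested genes passed in either direction and 3.36% in the lower direction. Over these 8 genes, 6 were lower and 2 were higher in Crlf2-/- hearts, with a median log2 fold change of -0.22. The 5 receptors tested were all lower, by -0.21 to -1.22 with a median of -0.60, while the 3 ligands tested ran from -0.16 to 0.33 with a median of 0.18. In bulk tissue, fewer cells of a type and less RNA per cell cannot be told apart.

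**Figure D1:**
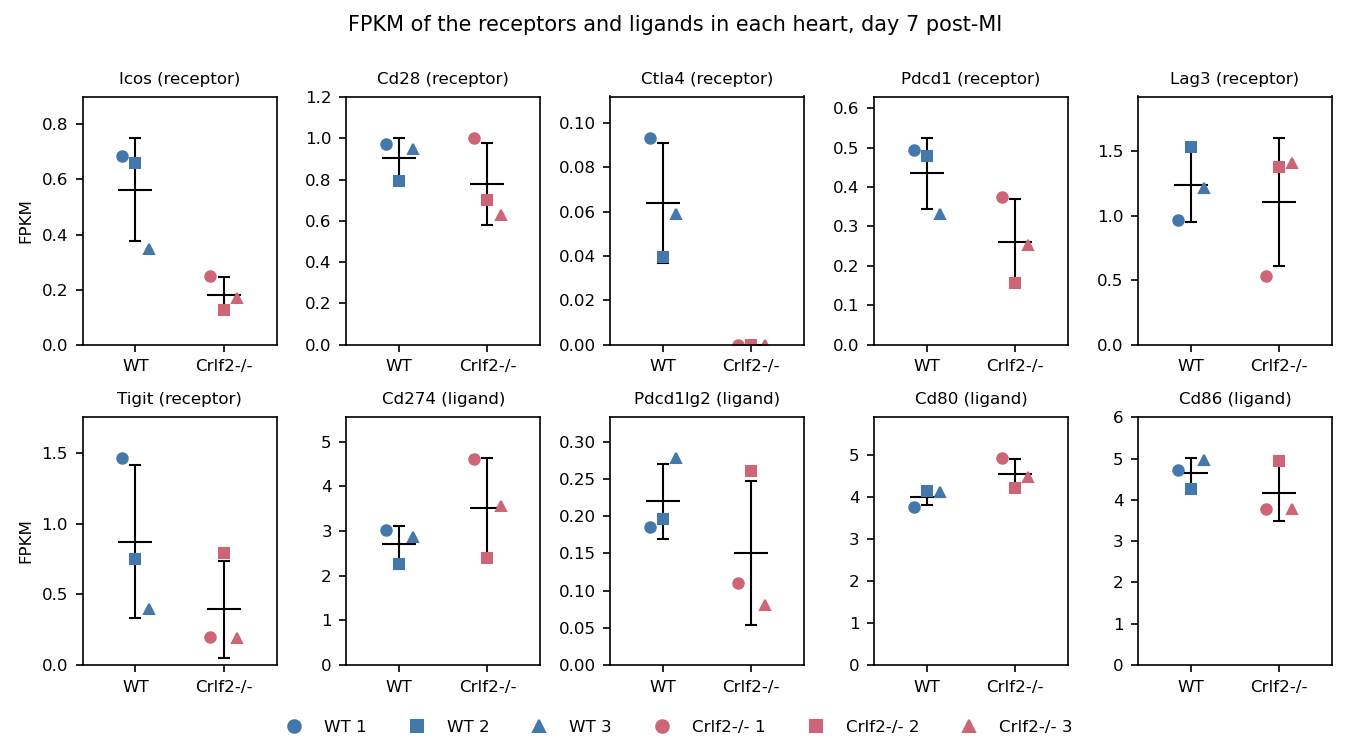
FPKM of the 6 receptors and 4 ligands in each of 3 WT (blue) and 3 Crlf2-/- (red) hearts, each gene on its own vertical axis from 0, with the mean (horizontal mark) and SD (bars) of each group. The Icos points of Crlf2-/- hearts (0.125 to 0.25 FPKM) lie below those of WT hearts (0.347 to 0.684 FPKM), the Cd80 points lie above (4.21 to 4.92 against 3.77 to 4.12 FPKM), Ctla4 is listed at 0 in each Crlf2-/- heart, and the groups of the other 7 genes overlap.

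The order of the levels in WT hearts, per gene length, put the 3 main ligands above every receptor. Cd86 was the highest at 4.66 ± 0.355 FPKM (SD, n = 3), Cd80 followed at 4.0 ± 0.205 FPKM (SD, n = 3) and Cd274 at 2.72 ± 0.398 FPKM (SD, n = 3), and the WT libraries of these neighbours did not overlap. Lag3, Cd28, Tigit, Icos and Pdcd1 came next at 1.24, 0.904, 0.872, 0.563 and 0.435 FPKM, and each overlapped its neighbour in this order. Pdcd1lg2 at 0.220 FPKM and Ctla4 at 0.0639 FPKM were the lowest. Averaged over the 6 libraries, Cd86 exceeded 53.1% of the tested genes in FPKM and Icos exceeded 10.2%, so the receptors sat in the low range of the table, where counting error is large.

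Among the activating receptors, Icos showed the clearest separation. Icos (ENSMUSG00000026009, chromosome 1 from 60977927 to 61000320) is induced on T cells after activation. It was 0.684, 0.659 and 0.347 FPKM in the WT hearts, from 54, 49 and 26 fragments, and 0.25, 0.125 and 0.168 FPKM in the Crlf2-/- hearts, from 19, 10 and 13 fragments. All Crlf2-/- values lay below all WT values, with WT replicate 3 the lowest of its group and Crlf2-/- replicate 1 the highest of the other. The group means were 0.563 ± 0.188 FPKM (SD, n = 3) for WT against 0.181 ± 0.0634 FPKM (SD, n = 3) for Crlf2-/- hearts, a log2 fold change of -1.22 (standard error 0.30, 95% interval -1.90 to -0.53, adjusted p = 0.315 from limma). With voom on the fragments, which adds no 0.1 FPKM, it was -1.60 (adjusted p = 0.320), and with a pseudocount of 1 FPKM it was -0.40 (adjusted p = 0.332). The study itself picked Icos from these libraries as a T cell activation gene, so its direction here is no independent evidence. It listed Icos among downregulated genes, from DESeq2 at the same thresholds. Limma on log2(FPKM + 0.1) did not call Icos, which differs from that result, and the reason was not tested.

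Cd28 (ENSMUSG00000026012, chromosome 1 from 60716800 to 60773359), the constitutive costimulatory receptor of T cells, did not separate the groups. It was 0.972, 0.791 and 0.949 FPKM in WT and 1.00, 0.700 and 0.630 FPKM in Crlf2-/- hearts. Crlf2-/- replicate 1 was the highest of all 6 libraries and the other Crlf2-/- libraries were the lowest, so the ranges overlapped. The log2 fold change of -0.21 had a 95% interval from -0.71 to 0.29 (adjusted p = 0.983).

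Ctla4 (ENSMUSG00000026011, chromosome 1 from 60887000 to 60915832) encodes the inhibitory receptor that takes CD80 and CD86 from CD28 and is abundant on regulatory T cells. It was represented by 5, 2 and 3 fragments in the WT libraries, or 0.0932, 0.0396 and 0.0589 FPKM, and by 0 fragments in each Crlf2-/- library. With the Crlf2-/- group set at a floor of 3 fragments, against 10 over the WT group, Ctla4 was 3.40-fold lower. The groups had a two-sided exact permutation p of 0.1, the lowest possible with 3 mice against 3. The 10 WT fragments were taken as exact, so 3.40 is not a lower bound. It leaves out their counting error and the spread between mice. The gene was too low for the filter, and with no filter limma gave it an adjusted p of 0.712 on a fold change that rests on the pseudocount (unadjusted p = 0.00993). Foxp3, the defining factor of regulatory T cells, had 10 fragments over the 3 WT and 11 over the 3 Crlf2-/- libraries, and its groups overlapped.

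The groups of the other 3 checkpoint receptors overlapped, and their 95% intervals included 0. Pdcd1 (ENSMUSG00000026285, chromosome 1 from 94038305 to 94052553), which encodes PD-1, was 0.495, 0.478 and 0.332 FPKM in WT and 0.374, 0.155 and 0.253 FPKM in Crlf2-/- hearts. Crlf2-/- replicate 1 lay above WT replicate 3, so the groups overlapped by this single pair of libraries. Its log2 fold change was -0.60 (95% interval -1.25 to 0.06, adjusted p = 0.807), and it ran from -0.82 without Crlf2-/- replicate 1 to -0.37 without Crlf2-/- replicate 2.

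Tigit (ENSMUSG00000071552, chromosome 16 from 43648867 to 43664146) encodes an inhibitory receptor of T cells and NK cells for CD155 and CD112. Its levels were 1.47, 0.753 and 0.398 FPKM in WT and 0.196, 0.793 and 0.193 FPKM in Crlf2-/- hearts, from 31, 15 and 8 against 4, 17 and 4 fragments. Crlf2-/- replicate 2 stood above the WT median and the remaining Crlf2-/- libraries below every WT library. The log2 fold change of -1.03 therefore carried a 95% interval from -2.28 to 0.21 (adjusted p = 0.838).

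Lag3 (ENSMUSG00000030124, chromosome 6 from 124904361 to 124911705), a receptor for MHC class II, lies 16.14 kb from Cd4, which encodes the other MHC class II receptor of T cells. Lag3 was 0.968, 1.53 and 1.21 FPKM in WT and 0.534, 1.38 and 1.41 FPKM in Crlf2-/- hearts. Only Crlf2-/- replicate 1 lay below the WT libraries. With all libraries the log2 fold change was -0.23 (95% interval -1.02 to 0.57, adjusted p = 0.995) and turned to 0.18 without that library. Cd4 itself was 1.44 ± 0.3 FPKM (SD, n = 3) in the WT hearts and 1.46 ± 0.341 FPKM (SD, n = 3) in those of Crlf2-/- mice.

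Among the ligands, Cd80 was the one whose groups did not overlap. Cd80 (ENSMUSG00000075122, chromosome 16 from 38455561 to 38496335), which is induced on activated antigen-presenting cells, was 3.77, 4.12 and 4.11 FPKM in WT and 4.92, 4.21 and 4.48 FPKM in Crlf2-/- hearts, from 321 to 404 fragments a library. All Crlf2-/- values lay above all WT values, though the smallest gap, from WT replicate 2 to Crlf2-/- replicate 2, was less than the SD of either group. Cd80 had a log2 fold change of 0.18 (95% interval -0.08 to 0.44, adjusted p = 0.900). With no overlap there was thus 1 of 8 tested genes in the higher direction, where 5.37% of all tested genes had none, and 1 of 8, Icos, in the lower direction, where 6.37% did. Both shares rest on a single gene.

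Cd86 (ENSMUSG00000022901, chromosome 16 from 36603869 to 36666081), the ligand that antigen-presenting cells carry before activation, pointed the other way. It was 4.73, 4.27 and 4.97 FPKM in WT and 3.78, 4.94 and 3.77 FPKM in Crlf2-/- hearts. Crlf2-/- replicate 2 lay just under the highest WT library and the other Crlf2-/- libraries lay below all WT libraries. The log2 fold change was -0.16 (95% interval -0.48 to 0.16, adjusted p = 0.953). Summed over Cd80 and Cd86, the shared ligands of CD28 and CTLA-4 came to 8.50, 8.40 and 9.09 FPKM in WT and 8.70, 9.16 and 8.25 FPKM in Crlf2-/- hearts, which overlap.

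Cd274 (ENSMUSG00000016496, chromosome 19 from 29367455 to 29388095) encodes PD-L1, the broadly expressed ligand of PD-1, and lies 22.82 kb before Pdcd1lg2, which encodes PD-L2. Cd274 was 3.02, 2.27 and 2.87 FPKM in WT and 4.62, 2.40 and 3.56 FPKM in Crlf2-/- hearts. Crlf2-/- replicates 1 and 3 lay above all WT libraries and Crlf2-/- replicate 2 lay among them, and the log2 fold change was 0.33 (95% interval -0.21 to 0.87, adjusted p = 0.932). Pdcd1lg2 (ENSMUSG00000016498) was represented by 7, 7 and 10 fragments in WT hearts and by 4, 10 and 3 in Crlf2-/- hearts, or 0.185, 0.196 and 0.278 against 0.110, 0.261 and 0.0809 FPKM. Its groups overlapped, and it was too low for the filter. With no filter, limma gave Pdcd1lg2 a log2 fold change of -0.41 (adjusted p = 0.882), and counting error is large at these fragment numbers. Icos, Ctla4, Cd274 and Pdcd1lg2 each overlap another annotated gene, on the opposite strand for Cd274 and Pdcd1lg2. Whether the counting used strand is not given in the sources used here.

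**Figure D2:**
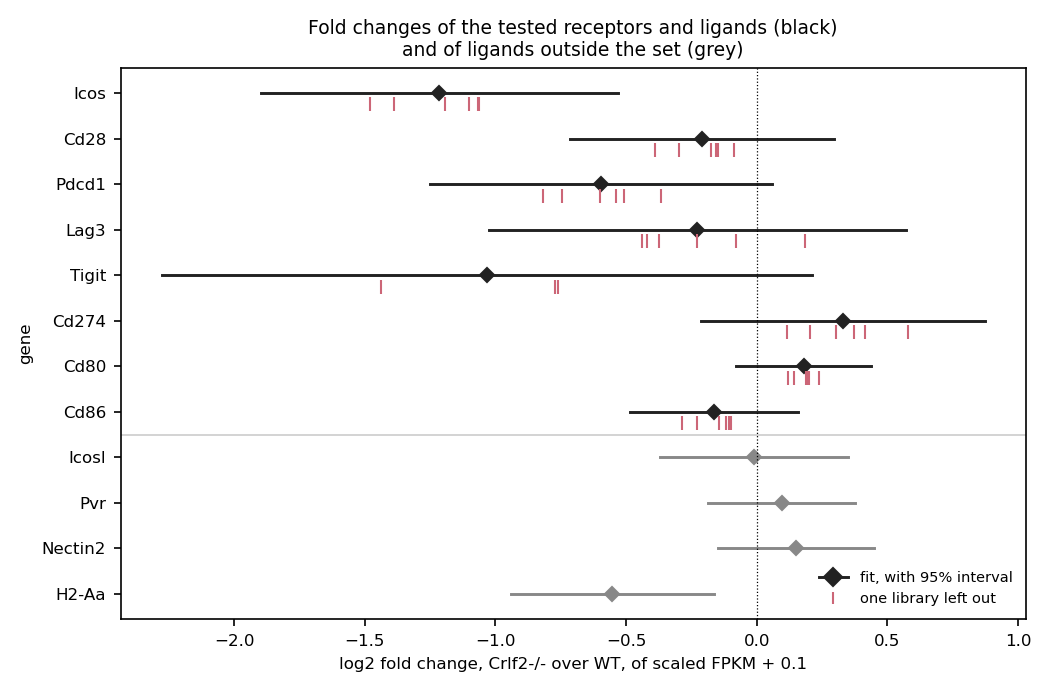
Log2 fold change of Crlf2-/- over WT hearts on the log2(FPKM + 0.1) scale for the 8 tested receptors and ligands (black diamonds) and 4 ligands outside the set (grey diamonds), with 95% intervals from limma (lines) and, for the 8, the value with 1 library left out (red ticks, fewer for Tigit because it then fails the filter). Among the 8, the interval of Icos alone stays below 0 (-1.90 to -0.53), and the ticks of Lag3 reach 0.18.

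Receptors were then set against their ligands in the same heart. The 6 receptors summed to 4.68, 4.25 and 3.30 FPKM in WT and to 2.36, 3.16 and 2.65 FPKM in Crlf2-/- hearts, without overlap. FPKM gives short genes more weight, and Tigit added 1.47 FPKM to WT replicate 1 from 31 fragments. In fragments the sums were 296, 261 and 234 in WT and 200, 202 and 182 in Crlf2-/- hearts. Of the tested receptors, Icos alone separated by itself, and no share over sums of other genes was worked out. The 4 ligands summed to 11.7, 10.9 and 12.2 FPKM in WT and to 13.4, 11.8 and 11.9 FPKM in Crlf2-/- hearts, which overlap. Ratios were taken per library as differences of log2(FPKM + 0.1), with no test, for 11 pairs. The 3 pairs with Ctla4 were left out because with 0 fragments the ratio would rest on the pseudocount.

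Of these 11 pairs, 9 were lower on average in Crlf2-/- hearts and 2 were higher. Many of the pairs share a gene, so they are not independent of each other. The groups did not overlap in 2 of the 11, where 12.3% of all pairs of tested genes did not overlap in either direction, so the number of such pairs is near the background. The ratio of Pdcd1 to Cd274, PD-1 to its main ligand, was -2.39, -2.03 and -2.78 in WT and -3.32, -3.29 and -3.38 in Crlf2-/- hearts on the log2 scale. All Crlf2-/- hearts lay below all WT hearts, with a mean difference of -0.93, although neither gene alone separated the groups. The ratio of Icos to Cd28, the activating receptors on either side of Ctla4, was -0.45, -0.23 and -1.23 in WT and -1.66, -1.83 and -1.45 in Crlf2-/- hearts, a difference of -1.01 without overlap. With a pseudocount of 1 FPKM these differences were -0.45 and -0.30.

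Icos against Icosl, its ligand, differed by -1.20, but WT replicate 3 (-3.34) lay below Crlf2-/- replicate 1 (-3.23). Icosl itself was 3.74 ± 0.644 FPKM (SD, n = 3) in the WT hearts and 3.69 ± 0.438 FPKM (SD, n = 3) in the Crlf2-/- hearts (log2 fold change -0.01, adjusted p = 0.996). Cd28 differed by -0.39 against Cd80 and by -0.05 against Cd86, with overlap in both, and the second value ran from -0.28 without Crlf2-/- replicate 1 to 0.14 without Crlf2-/- replicate 2. Cd86 against Cd80 was above 0 in all 3 WT hearts (0.05 to 0.32) and below 0 in Crlf2-/- replicates 1 and 3 (-0.37 and -0.24), yet Crlf2-/- replicate 2 (0.22) lay among the WT values.

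Tigit differed by -1.13 against Pvr (CD155) and by -1.18 against Nectin2 (CD112), with overlap in both, and without WT replicate 1 these values were -0.66 and -0.70. Pvr had a log2 fold change of 0.10 (adjusted p = 0.991) and Nectin2 one of 0.15 (adjusted p = 0.953). Lag3 against H2-Aa, a chain of the MHC class II molecule it binds, was one of the 2 pairs with a higher mean, by 0.33, which was 0.03 without Crlf2-/- replicate 2 and 0.69 without Crlf2-/- replicate 1. H2-Aa was 171, 210 and 226 FPKM in WT and 128, 119 and 167 FPKM in Crlf2-/- hearts (log2 fold change -0.55, adjusted p = 0.486), and all Crlf2-/- libraries lay below all WT libraries. The remaining pairs, Pdcd1 to Pdcd1lg2 at -0.19 and Cd274 to Pdcd1lg2 at 0.74, overlapped and rest on the few fragments of Pdcd1lg2, and the first turned to 0.33 without Crlf2-/- replicate 2.

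**Figure D3:**
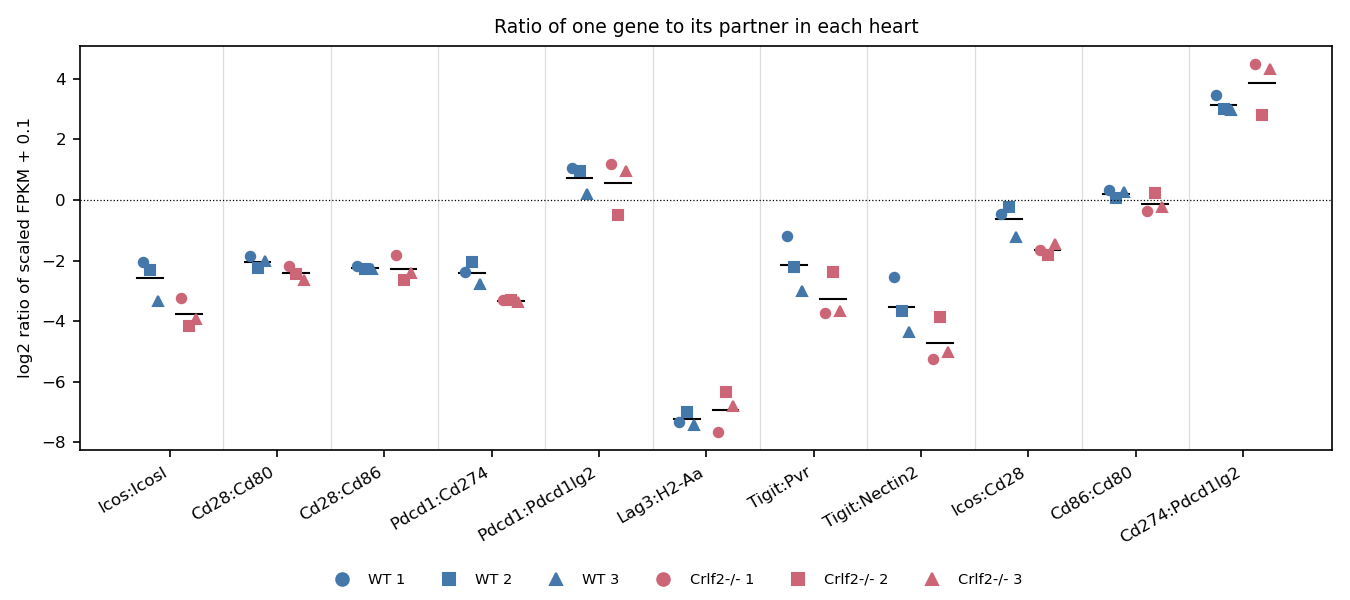
Log2 ratio of scaled FPKM + 0.1 between the first and the second gene of 11 pairs in each of 3 WT (blue) and 3 Crlf2-/- (red) hearts, with group means as horizontal lines. The groups are apart for Pdcd1 to Cd274 (WT -2.78 to -2.03, Crlf2-/- -3.38 to -3.29) and for Icos to Cd28 (WT -1.23 to -0.23, Crlf2-/- -1.83 to -1.45), and overlap in the other 9 pairs.

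The CD3 chains, which T cells carry as part of the antigen receptor, were lower too and were used as a common scale. Summed over Cd3d, Cd3e, Cd3g and Cd247, they were 4.21, 5.29 and 3.02 FPKM in WT and 1.45, 1.43 and 1.33 FPKM in Crlf2-/- hearts. The mean of the 4 chains differed by -1.36 on the log2 scale, without overlap. Their part in the difference of each receptor was not tested. Relative to it, Icos was -0.40, -0.69 and -0.84 in WT and -0.21, -0.71 and -0.58 in Crlf2-/- hearts, which overlap, with a mean difference of 0.14.

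Because the CD3 chains themselves were lower, a gene with no difference would come out higher by 1.36 on this scale, and 94.5% of all tested genes did not overlap in the higher direction. Cd28 relative to the CD3 chains was 0.06, -0.45 and 0.39 in WT and 1.45, 1.12 and 0.87 in Crlf2-/- hearts, a mean difference of 1.15. Pdcd1 was -0.79, -1.08 and -0.89 in WT and 0.23, -0.53 and -0.18 in Crlf2-/- hearts, a mean difference of 0.76. For Lag3 the difference was 1.13 and for Tigit 0.32, both with overlap. The ligands Cd274, Cd80, Cd86 and Pdcd1lg2 differed by 1.69, 1.54, 1.19 and 0.95, the last with overlap. In all, 5 of 9 genes did not overlap, so nothing is read from the separation of these 5. These values share the CD3 chains as denominator and are not independent of each other.

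**Figure D4:**
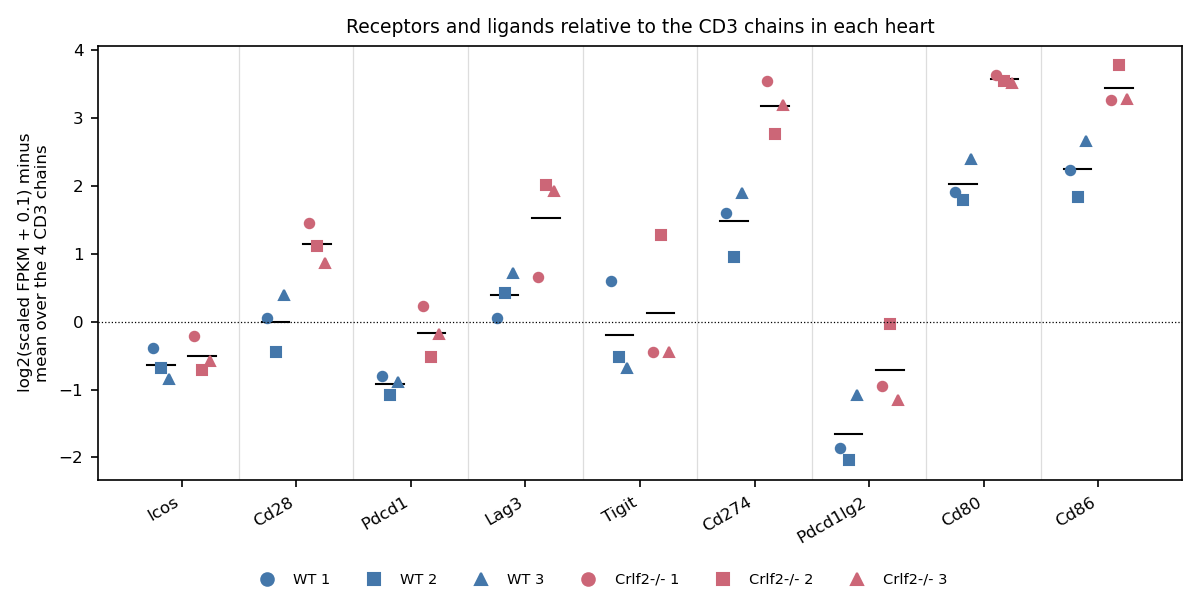
Level of 5 receptors and 4 ligands relative to the CD3 chains, as log2(scaled FPKM + 0.1) minus the mean over Cd3d, Cd3e, Cd3g and Cd247, in each of 3 WT (blue) and 3 Crlf2-/- (red) hearts, with group means as horizontal lines. Icos overlaps between the groups (mean difference 0.14), and the other differences run from 0.32 to 1.69, where a gene with no difference would lie at 1.36 because the CD3 chains themselves were lower.

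Further genes of these pathways were read from fixed lists, and 0 of their genes were called different. Of 7 genes that encode other CD28 and B7 family proteins or the BTLA partners Tnfrsf14 (HVEM) and Cd160, 3 were higher and 4 lower (median log2 fold change -0.01), and 1 had an unadjusted p under 0.05, Cd160, a receptor for HVEM (-0.51, adjusted p = 0.730). Of 15 tested genes of other inhibitory and co-receptor pairs, 7 were higher and 8 lower (median -0.09). Lgals9, which encodes the TIM-3 ligand galectin-9, was higher (0.53, adjusted p = 0.331), and Cd226, the activating receptor that competes with TIGIT for CD155, was lower (-0.85, adjusted p = 0.563).

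Of 10 tested genes of TNF family costimulation, 6 were higher and 4 lower (median 0.04), and Cd40, the receptor through which T cell help raises CD80 and CD86 on antigen-presenting cells, had an unadjusted p under 0.05 (0.52, adjusted p = 0.355). Cd40 was 2.14, 2.02 and 2.15 FPKM in WT and 3.47, 2.73 and 3.01 FPKM in Crlf2-/- hearts, without overlap. Its partner Cd40lg had 18 fragments over all 6 libraries and could not be tested. Of 22 genes that carry the signal of CD28 and ICOS inside the cell, 7 were higher and 15 lower (median -0.05). Among those with an unadjusted p under 0.05 were the T cell kinases Lck (-0.996, adjusted p = 0.312) and Zap70 (-0.90, adjusted p = 0.354), while kinases and phosphatases shared with other cells, such as Akt1 (0.05) and Ptpn6 (0.09), were near 0.

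All 7 genes of the MHC class II list were lower (median -0.42), and 4 had an unadjusted p under 0.05, H2-Aa, H2-DMa (-0.32), H2-Eb1 (-0.50) and the invariant chain Cd74 (-0.47), with adjusted p-values from 0.486 to 0.646. Of 11 tested genes of the interferon gamma response, a known inducer of Cd274, 8 were higher and 3 lower (median 0.15). At an unadjusted p under 0.05, Gbp3 was higher (0.75, adjusted p = 0.254) and the receptor chain Ifngr1 was lower (-0.33, adjusted p = 0.457). Over all tested genes 3.22% had an unadjusted p under 0.05 in the higher direction.

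Markers of the cells that could carry these genes are given beside them, and their part in the differences was not tested. Of 18 T cell markers, 16 were lower, 14 of them at an unadjusted p under 0.05 (median -1.05). They summed to 54.5 to 72.3 FPKM in WT and 44.2 to 46.2 FPKM in Crlf2-/- hearts. The largest part of this sum was Thy1, which hardly differed, with means of 27.5 FPKM in WT and 27.0 FPKM in Crlf2-/- hearts. Trbc2 (-1.56, adjusted p = 0.0637) and Cd8b1 (-1.55, adjusted p = 0.0778) had the smallest adjusted p-values, and Cd3e and Cd6 of this list, like Lck and H2-Aa above, are named by the study from these libraries. The 4 tested regulatory T cell genes had a median of 0.29, with 3 higher and 0 at an unadjusted p under 0.05 by limma. The median was -0.0063 without WT replicate 1 and 0.12 without Crlf2-/- replicate 2. Ikzf2 (0.29, adjusted p = 0.983) had the most fragments.

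Of the cells that carry the ligands, 12 of 14 monocyte and macrophage markers were higher (median 0.11), with Fcgr1 (0.58) and Ly6c2 (0.57) at an unadjusted p under 0.05. The list summed to 2535 to 4481 FPKM in WT and 3030 to 3658 FPKM in Crlf2-/- hearts. The largest part of this sum was Lyz2, with means of 1927 FPKM in WT and 1726 FPKM in Crlf2-/- hearts. Of 12 dendritic cell markers 9 were lower (median -0.19), with Ccl22 (-1.54), Cd209a (-0.99), Ccr7 (-0.76) and Zbtb46 (-0.42) at an unadjusted p under 0.05. The list summed to 82.6 to 88.1 and 83.1 to 94.6 FPKM. Most of this sum was Fscn1, with means of 57.0 FPKM in WT and 65.2 FPKM in Crlf2-/- hearts, so it does not show the lower markers. B cell markers had a median of 0.01 over 7 genes, with Cd79b (-0.18) the one with the most fragments, and they summed to 5.41 to 7.60 and 4.69 to 8.996 FPKM. NK cell markers had a median of 0.11 over 7 genes, with Gzma (-0.77) at an unadjusted p under 0.05, and summed to 7.12 to 7.29 and 4.30 to 7.25 FPKM.

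All 10 cardiomyocyte markers were lower (median -0.72), with Myl2 (-1.35), Tnni3 (-1.34), Mb (-1.04) and Pln (-0.75) at an unadjusted p under 0.05, and they summed to 1191 to 2214 FPKM in WT and 793.5 to 1541 FPKM in Crlf2-/- hearts. The defining genes of heart muscle were thus present in every library. Of 6 endothelial markers 5 were lower (median -0.14), with Tek (-0.32) at an unadjusted p under 0.05, and 3 of 6 fibroblast markers were lower (median -0.05), with Tcf21 (-0.44) at an unadjusted p under 0.05. The endothelial list summed to 134.4 to 157.6 and 126.3 to 134.4 FPKM and the fibroblast list to 4889 to 5901 and 5868 to 5986 FPKM. No marker of these lists was at 0 in every library.

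**Figure D5:**
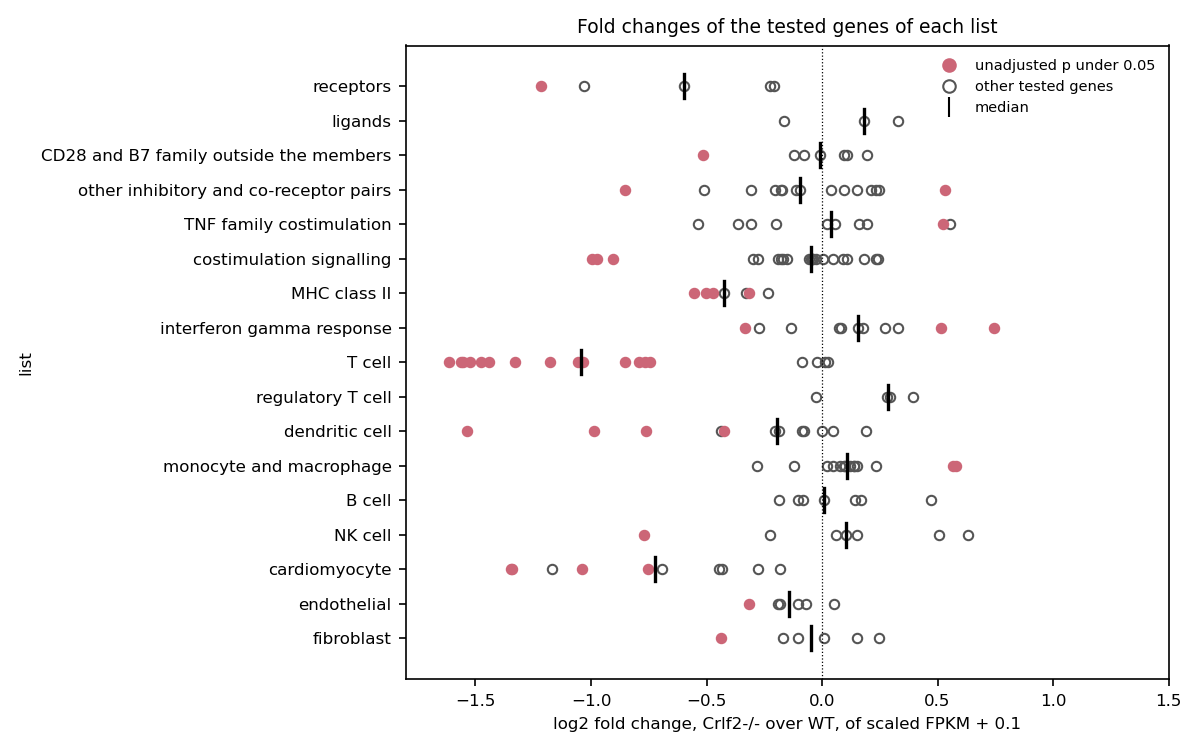
Log2 fold change of Crlf2-/- over WT hearts on the log2(FPKM + 0.1) scale for each tested gene of the receptors, the ligands and the fixed lists, with genes at an unadjusted p under 0.05 filled and the median as a bar. The medians are -0.60 for the receptors and 0.18 for the ligands, and those of the fixed lists run from -1.05 (T cell) to 0.29 (regulatory T cell).

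Over the 6 libraries, the tested genes whose log2(FPKM + 0.1) followed Cd28, the receptor with the most fragments, most closely were Cab39 (Pearson r = 0.991), Pomt1 (0.989) and Serpini1 (0.977). For Cd86, the ligand with the most fragments, they were Zfp956 (0.982), Armc2 (0.981) and Depdc1b (0.977). For Icos, added after its values were seen, they were Ctnnb1 (0.997), Fam117b (0.995) and Mrm3 (0.988). With 6 libraries and 15520 genes these are the best of many, and they share depth and group with the member they follow.

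RefSeq start-site promoters, 250 bases before to 50 bases after the start on GRCm38.p6, were at hand for 6 of the 10 genes, Ctla4, Pdcd1, Cd80, Tigit, Cd274 and Pdcd1lg2. The STAT motif TTCNNNGAA, which reads the same on both strands, was searched because TSLP signals through STAT5. It was found in 0 of these 6 windows and in 8.3% of the 32851 promoters of the table, which says only that these letters are not in these windows. The promoters of Ctla4, the receptor listed at 0 in Crlf2-/- hearts, and of Cd80, the ligand whose groups did not overlap, are given in lower case because no match was found. Both windows lie inside the gene spans given above, which start further upstream.
Ctla4, chr1:60908775-60909074, plus strand: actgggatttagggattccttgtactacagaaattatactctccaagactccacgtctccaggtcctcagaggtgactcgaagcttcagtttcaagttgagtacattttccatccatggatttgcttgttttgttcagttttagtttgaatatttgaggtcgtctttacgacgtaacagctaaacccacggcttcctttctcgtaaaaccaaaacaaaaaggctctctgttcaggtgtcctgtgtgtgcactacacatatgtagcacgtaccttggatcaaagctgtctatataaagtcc
Cd80, chr16:38458683-38458982, plus strand: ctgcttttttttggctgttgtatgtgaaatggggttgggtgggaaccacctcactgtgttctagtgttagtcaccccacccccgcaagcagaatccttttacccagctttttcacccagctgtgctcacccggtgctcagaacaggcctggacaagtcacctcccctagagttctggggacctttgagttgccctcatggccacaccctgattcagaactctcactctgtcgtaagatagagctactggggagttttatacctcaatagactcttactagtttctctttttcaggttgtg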

How the data were processed

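Heart RNA of 3 WT and 3 Crlf2-/- mice was sequenced. The tissue label and the methods say heart, which was followed, although the labels' extraction protocol names another tissue. The authors aligned the reads with HISAT2 2.0.5, counted fragments with featureCounts and deposited FPKM per gene and library. The submitters' processing notes name mm10 and also hg38. FPKM times gene length gave whole fragments (within 0.1) for all nonzero values, and depth and filter were taken from these. The table held 0 columns of other samples.

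Libraries were scaled with trimmed means of M values (TMM), and log2(FPKM + 0.1) was tested with limma 3.58.1 in R 4.3.3 (lmFit, eBayes with trend and robust) with Benjamini-Hochberg adjustment. The filter kept genes with 10 or more fragments in 3 or more libraries and 15 or more over all. The thresholds for a call, from the study's methods, were an adjusted p of 0.05 and a log2 fold change of 0.5 in either direction. Ranges beside fold changes are 95% intervals. Each pair or CD3 value is a difference of scaled log2 values within a library, without a test. Other steps used Python 3.11.15, pandas 2.3.3 and matplotlib 3.10.9. The test was tried on simulated data, with a fixed spread and with changes larger than those of the tested receptors and ligands. The changed genes also had more fragments than the lowest genes described here. That trial therefore does not show which differences the test could find in these genes.

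The members and lists were chosen with earlier results of these data known. From each list the text names the genes with an unadjusted p under 0.05, otherwise the gene with the most fragments. Results that need an item withheld for evaluation are not reported here. Akt1, Ptpn6, Cd40lg and the other genes named outside this rule were chosen after their values were seen. Separate mice are taken from the methods, and p-values measure only the spread between these libraries.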

Additional observations from a re-analysis of the deposited data

How the results depend on the processing

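The groups share replicate numbers, but libraries with the same number did not all deviate together (correlations of -0.016, 0.115 and 0.12), so a number was treated as a name only. With the replicate block, 4 genes were called in place of 2, and 0 of the receptors and ligands. The number of genes called was 6 with no filter on low fragments, 1 with at least 10 fragments in every library, and between 1 and 14 with 1 library left out, with 14 without Crlf2-/- replicate 1, 5 without WT replicate 3 and 1 without WT replicate 1, WT replicate 2 or Crlf2-/- replicate 3. The cause was not tested. Of the receptors and ligands, 0 were called in each of these fits, with voom on the fragments, with pseudocounts of 1 and 0.01, with other scalings, with no threshold on the fold change and without haemoglobin and mitochondrial genes. The adjusted p of Icos ranged from 0.16 to 0.892. The log2 fold change of Lag3 ranged from -0.4372 without Crlf2-/- replicate 3 to 0.1834 without Crlf2-/- replicate 1, and the other receptors and ligands tested kept their direction in every fit that tested them. Tigit, and Pdcd1 in the stricter filter, dropped out of some fits because too few libraries reached 10 fragments. With a pseudocount of 1, the ratios of Icos to Icosl, Pdcd1 to Cd274 and Icos to Cd28 differed by -0.3877, -0.4501 and -0.2954 in place of -1.20, -0.93 and -1.01. With 1 library left out, the medians of the B cell, NK cell, TNF family, fibroblast, monocyte and macrophage, regulatory T cell, CD28 and B7 and other inhibitory lists took both signs, between -0.27 and 0.42. The 3 pairs with Ctla4 were planned and not run. Counting error limits Ctla4, Pdcd1lg2, Tigit and Pdcd1, which had at most 31 fragments in any library.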
